A study of Homo sapiens with 3 samples.

Results

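SP100, SP110, PML, TRIM14, TRIM21, TRIM22 and TRIM25 are human genes of the nuclear bodies and of the tripartite motif (TRIM) family that are linked to antiviral defence. They were taken by symbol from the platform's annotation, every probe set with 1 of these symbols being kept, which gave 24 of 22277 probe sets on the array and 7 of 11963 named genes. The study transfected HEK293T cells, a line made from human embryonic kidney that expresses SV40 large T antigen. Every culture received dCas9VP160, a Cas9 that no longer cuts DNA and is fused to the VP160 activator, together with a guide RNA that differed between cultures. Each guide was measured on 1 of 3 arrays: sgIL1RN1~3, guides for the promoter of IL1RN; sgTetO, a guide for the TetO promoter, a bacterial operator used in inducible transgenes; and sgTetOmut, a mutant of that guide with no target, which served as control. All groups shared the cell line, the activator and the reagent, Fugene HD. With 1 array per group there is no replicate error, no test and no p-value, and every difference below compares arrays. In such a culture, a change in a few cells and a change in all of them cannot be told apart.

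PML nuclear bodies are spherical protein assemblies in the nucleus. PML forms their shell, SP100 is a permanent resident, and SUMO modification holds the assembly together. Incoming DNA virus genomes are often found beside these bodies, where their transcription is repressed. TRIM proteins are mostly RING-type ubiquitin ligases, several of which act on viral proteins or on the sensors that detect viral RNA. Many genes of both kinds are known targets of interferon, whose signal reaches promoters through the interferon-stimulated response element (ISRE), bound by a complex of STAT proteins and IRF9.

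The deposited values are on a log2 scale, so a difference of 1 is 2-fold. A set was taken as above background on an array when it exceeded the highest of 27 Bacillus subtilis control sets, at 3.40 on sgIL1RN1~3, 3.40 on sgTetO and 3.29 on sgTetOmut. By that measure 14 of the 24 member sets were above background on all 3 arrays, 5 on some of them and 5 on none. IL1RN itself read 7.01 with sgIL1RN1~3, 2.28 with sgTetO and 2.23 with sgTetOmut by the brightest of its 5 sets, 212657_s_at. Of 6 markers of the cell line, all were above background on all 3 arrays and 4 reached the median level of all genes on each array, with VIM at 10.4, 9.87 and 9.88 and NEFL at 10.4, 10.2 and 10.1 on sgIL1RN1~3, sgTetO and sgTetOmut. KRT8, at 4.32, 3.95 and 3.95, and PAX2, at 5.62, 5.68 and 5.97, lay below that median on all 3 arrays. Of 9 measured blood and immune markers, 6 were at background on all 3 arrays, among them PTPRC and CD74, and none reached the median level of all genes on any array. CD14, at 3.89, 3.83 and 4.23, and LCP1, at 3.74, 3.91 and 3.86, were above background on all 3 arrays, and CD79A on sgIL1RN1~3 and sgTetOmut. The summed level of the 9 markers was 6.32, 6.29 and 6.36 (log2) on sgIL1RN1~3, sgTetO and sgTetOmut. Of 3 endothelial markers, VWF was at background on all arrays. CDH5 was above background on all of them, at 3.74, 3.53 and 3.74, and PECAM1 on sgTetOmut alone, at 3.71. The summed level of the endothelial list was 4.79, 4.87 and 5.05.

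SP100, SP110, TRIM21 and TRIM22 were at least 2-fold lower with sgIL1RN1~3 and with sgTetO than with sgTetOmut, PML and TRIM14 were lower by less than that, and TRIM25 was not lower. Of the 24 member sets, 7 were at least 2-fold lower with sgIL1RN1~3 than with sgTetOmut, where 0.404% of all 19070 named sets were, and 7 were so with sgTetO, where 0.325% of all named sets were. The same 7 sets, of 4 genes, passed in both comparisons, against 0.294% of all named sets. Between sgIL1RN1~3 and sgTetO, 0 of the 24 sets were 2-fold apart, where 0.362% of all named sets were, a share at which 0 of 24 says little. The SD of that difference was 0.24 over the 24 sets and 0.28 over all named sets. The members were chosen with these differences known, and both comparisons use the same sgTetOmut array, so the counts describe the genes and test nothing. By the set with the highest mean for each gene, the 7 members had a median difference of -1.42 for sgIL1RN1~3 minus sgTetOmut and -1.37 for sgTetO minus sgTetOmut, while the median over all 11963 genes was 0.00 and -0.01.

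**Figure D1:**
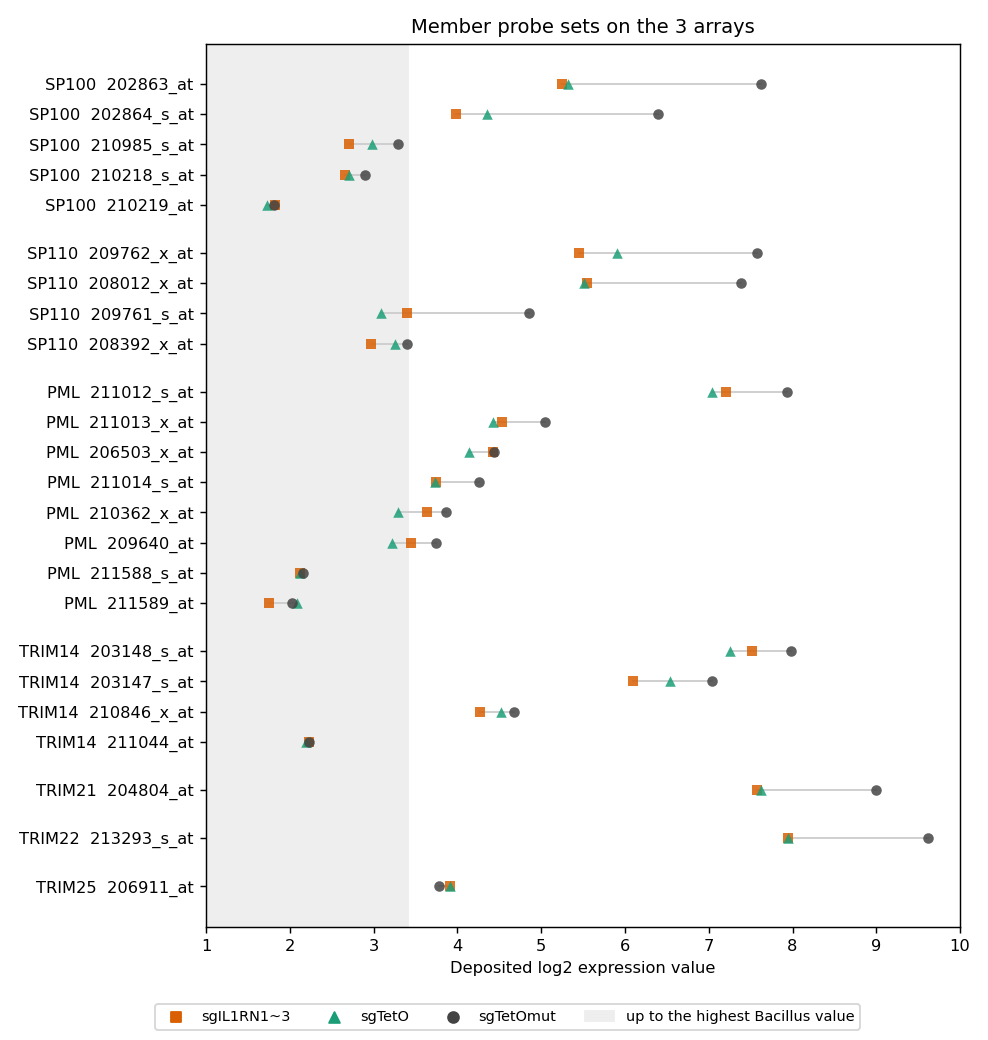
Deposited log2 value (x axis) of each of the 24 member probe sets (rows, grouped by gene) on the sgIL1RN1~3 array (squares), the sgTetO array (triangles) and the sgTetOmut array (circles); the grey band ends at the highest Bacillus control value, 3.40. For SP100, SP110, TRIM21 and TRIM22 the sgTetOmut circle stands 1 log2 unit or more to the right of both other arrays in 7 sets, while TRIM25 shows its 3 values between 3.78 and 3.91.

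SP100, the permanent partner of PML in nuclear bodies, had the largest difference of the members. Its set 202863_at read 5.24 with sgIL1RN1~3, 5.32 with sgTetO and 7.62 with sgTetOmut. The sgTetOmut array stood alone and the other arrays lay 0.08 apart, less than the SD of 0.32 that sgIL1RN1~3 minus sgTetO showed over the 100 non-member sets nearest in level. In linear terms SP100 was at 19.2% of its sgTetOmut level with sgIL1RN1~3 and at 20.3% with sgTetO, differences of -2.38 and -2.30. These were the 15th and 12th lowest of all 19070 named sets. The second set, 202864_s_at, read 3.98 with sgIL1RN1~3, 4.35 with sgTetO and 6.39 with sgTetOmut, which is a difference of -2.41 and -2.04.

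The other SP100 sets carried no such signal. Set 210985_s_at read 2.70 with sgIL1RN1~3, 2.98 with sgTetO and 3.29 with sgTetOmut, which was at the edge of background on sgTetOmut and below it on the other arrays. Sets 210218_s_at and 210219_at stayed within background everywhere, with values from 1.73 to 2.90. Averaged over its 5 sets, dim ones included, SP100 differed from sgTetOmut by -1.12 with sgIL1RN1~3 and by -0.99 with sgTetO. SP100 has several splice forms, and which of them these 3 sets and the 2 bright ones measure was not examined. Since a dim set has no usable level, forms measured only by dim sets were not detectable here, which does not show that they are absent.

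SP110, a relative of SP100 with SAND and bromodomain regions that is known mainly from leukocytes, was also highest on sgTetOmut. Set 209762_x_at read 5.45 with sgIL1RN1~3, 5.91 with sgTetO and 7.58 with sgTetOmut, a difference of -2.13 and -1.67. Set 208012_x_at read 5.55, 5.51 and 7.38 on sgIL1RN1~3, sgTetO and sgTetOmut, a difference of -1.83 and -1.87. Both sets put sgTetOmut highest, and they differ on which of the other arrays was lower, by 0.46 in the first set and 0.04 in the second. The gap of 0.46 was above the SD of 0.32 of the 100 nearest sets, and that of 0.04 was under the SD of 0.36.

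A dimmer SP110 set, 209761_s_at, read 3.40 with sgIL1RN1~3, 3.08 with sgTetO and 4.85 with sgTetOmut. It was above background on sgTetOmut alone, so its level there was at least 2.73-fold higher than with sgIL1RN1~3 and at least 2.73-fold higher than with sgTetO. The fourth set, 208392_x_at, read 2.96, 3.26 and 3.40 on sgIL1RN1~3, sgTetO and sgTetOmut, and was above background only on sgTetOmut, by less than 1 log2 unit. Sets whose name ends in _x_at can also bind transcripts of related genes, which applies to 3 of the 4 SP110 sets.

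SP110 has 2 RefSeq transcript starts with a promoter window in GRCh38.p14, each of 300 bases, from 250 before the start to 50 from the start on. They are shown because both hold 2 GAAA repeats 3 bases apart (GAAANNNGAAA on either strand, in capitals), a spacing that interferon response elements also use; this spacing was added after the sequences had been read. Window 1 lies on the minus strand at chr2:230219935-230220234, with the match from -51 to -41 on the opposite strand. Window 2 lies on the minus strand at chr2:230225587-230225886, with the match from -100 to -90 on the transcript's strand.
SP110 window 1: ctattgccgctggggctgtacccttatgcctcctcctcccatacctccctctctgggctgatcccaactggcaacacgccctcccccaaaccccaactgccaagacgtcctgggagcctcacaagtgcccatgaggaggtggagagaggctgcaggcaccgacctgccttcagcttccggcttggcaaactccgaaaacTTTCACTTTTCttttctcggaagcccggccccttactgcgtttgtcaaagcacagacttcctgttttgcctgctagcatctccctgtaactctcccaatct
SP110 window 2: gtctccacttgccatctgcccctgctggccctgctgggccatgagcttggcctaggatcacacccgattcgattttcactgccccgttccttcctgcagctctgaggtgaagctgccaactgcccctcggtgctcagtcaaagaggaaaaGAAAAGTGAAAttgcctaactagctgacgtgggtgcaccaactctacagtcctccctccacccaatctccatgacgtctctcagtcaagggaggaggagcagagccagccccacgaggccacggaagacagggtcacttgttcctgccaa
Window 1 also holds a gamma-activated site (TTCNNNGAA) from -38 to -30, which does not overlap the repeats. The search pattern, though not the bases of the site, is the same on both strands. Among all 35116 promoter windows of the table, 2.86% hold the repeats 3 bases apart, 3.57% hold them 2 bases apart, 6.08% hold either, and 7.66% hold a gamma-activated site. These matches describe the letters and say nothing of binding in these cells.

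SP100 and SP110 are neighbours on chromosome 2, with SP140 and SP140L between them, which belong to the same family. SP140L read 5.36 with sgIL1RN1~3, 5.31 with sgTetO and 6.05 with sgTetOmut, a difference of -0.69 and -0.74. SP140, a leukocyte protein, was at background on all 3 arrays, from 1.62 to 1.94. The nearest measured genes outside the family were under 0.6 apart: TRIP12, a ubiquitin ligase, differed by -0.12 and -0.07, CAB39 by 0.21 and -0.16, and ITM2C by 0.52 and 0.06 for sgIL1RN1~3 and sgTetO minus sgTetOmut. Of these genes SP110, SP140L and SP100 were at least 1.5-fold lower on both arrays.

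PML, which builds the nuclear body, was lower by less than 2-fold. Its brightest set, 211012_s_at, read 7.20 with sgIL1RN1~3, 7.04 with sgTetO and 7.94 with sgTetOmut. The difference was -0.74 and -0.90, so PML stood at 60.0% of its sgTetOmut level with sgIL1RN1~3 and at 53.6% with sgTetO. The gap between sgIL1RN1~3 and sgTetO, 0.16, was under the SD of 0.28 of the 100 nearest sets.

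Among the further PML sets above background on every array, 211013_x_at differed from sgTetOmut by -0.52 and -0.62, 211014_s_at by -0.51 and -0.53, and 206503_x_at by -0.01 and -0.30 for sgIL1RN1~3 and sgTetO. The last set read 4.43 with sgIL1RN1~3, 4.14 with sgTetO and 4.44 with sgTetOmut, so here sgIL1RN1~3 and sgTetOmut lay together. Its gap between sgIL1RN1~3 and sgTetO was 0.29, against an SD of 0.28 of the 100 nearest sets. Sets 210362_x_at and 209640_at, above background on sgIL1RN1~3 and sgTetOmut but not on sgTetO, differed by -0.22 and -0.29 for sgIL1RN1~3 minus sgTetOmut. Sets 211588_s_at and 211589_at did not exceed background on any array. PML is spliced into many forms that share their first exons and end differently, and 0 of its 8 sets passed 2-fold.

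TRIM22, a TRIM ligase known to restrict retroviruses and influenza virus, had 1 set, 213293_s_at. It read 7.95 with sgIL1RN1~3, 7.95 with sgTetO and 9.62 with sgTetOmut. The first 2 arrays agreed within 0.01, and TRIM22 was at 31.4% of its sgTetOmut level with sgIL1RN1~3 and at 31.5% with sgTetO, a difference of -1.67 and -1.66. TRIM22 lies on chromosome 11 in a group of TRIM genes, of which TRIM5, whose product binds retroviral capsids, was measured. TRIM5 read 10.6 with sgIL1RN1~3, 10.6 with sgTetO and 11.1 with sgTetOmut, a difference of -0.52 and -0.52.

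TRIM21, a cytosolic receptor that binds antibody on incoming virus and marks the complex for degradation, also had 1 set, 204804_at. It read 7.58 with sgIL1RN1~3, 7.63 with sgTetO and 8.99 with sgTetOmut. Again sgTetOmut stood apart and the other arrays were 0.05 apart. TRIM21 was at 37.5% of its sgTetOmut level with sgIL1RN1~3 and at 38.8% with sgTetO, a difference of -1.42 and -1.37. TRIM68, another gene of this family on chromosome 11, differed from sgTetOmut by 0.06 with sgIL1RN1~3 and by -0.30 with sgTetO.

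TRIM14 has no RING finger and acts as an adaptor of the mitochondrial antiviral protein MAVS. Its brightest set, 203148_s_at, read 7.52 with sgIL1RN1~3, 7.26 with sgTetO and 7.98 with sgTetOmut, a difference of -0.46 and -0.73. Set 203147_s_at read 6.09 with sgIL1RN1~3, 6.54 with sgTetO and 7.04 with sgTetOmut, a difference of -0.95 and -0.50. Both put sgTetOmut highest, and they disagree on which other array was lower, by 0.26 in one direction and 0.45 in the other. The gap of 0.26 was under the SD of 0.32 of the 100 nearest sets, and that of 0.45 was above the SD of 0.28.

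The remaining TRIM14 sets were smaller or dim. Set 210846_x_at differed by -0.40 and -0.16 for sgIL1RN1~3 and sgTetO minus sgTetOmut, and 211044_at was at background. At a limit of 1.5-fold rather than 2-fold, 10 member sets were lower with sgIL1RN1~3, where 1.71% of all named sets were, and 10 with sgTetO, where 1.12% were. Of the genes by their highest set, 5 of 7 members were 1.5-fold lower in both comparisons, PML being added to the 4 above, against 0.619% of all genes. By the mean of all its sets, dim ones included, PML differed by -0.32 with sgIL1RN1~3 and by -0.43 with sgTetO and was not 1.5-fold lower.

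The promoter windows of TRIM21 and TRIM14 are shown because they hold the ISRE core with the GAAA repeats 2 bases apart (GAAANNGAAA on either strand, in capitals). TRIM21 lies on the minus strand at chr11:4393653-4393952 and has a pair of overlapping matches just inside the transcript, from 18 to 27 and from 24 to 33 counted from the start. TRIM14 lies on the minus strand at chr9:98119173-98119472, with 1 match on the opposite strand from -26 to -17.
TRIM21: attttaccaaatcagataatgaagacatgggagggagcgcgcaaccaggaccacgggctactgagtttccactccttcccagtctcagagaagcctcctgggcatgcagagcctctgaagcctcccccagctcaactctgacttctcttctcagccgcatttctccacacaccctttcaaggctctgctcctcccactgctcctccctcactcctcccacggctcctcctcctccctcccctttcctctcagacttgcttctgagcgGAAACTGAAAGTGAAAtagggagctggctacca
TRIM14: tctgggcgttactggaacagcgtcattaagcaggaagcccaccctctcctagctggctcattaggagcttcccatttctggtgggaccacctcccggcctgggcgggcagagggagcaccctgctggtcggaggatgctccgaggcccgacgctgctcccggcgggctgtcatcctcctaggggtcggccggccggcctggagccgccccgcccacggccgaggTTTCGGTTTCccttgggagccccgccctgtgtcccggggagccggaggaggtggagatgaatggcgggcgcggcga
Promoter windows from RefSeq were available for 5 of the 7 members, 7 windows in all, and none for PML and TRIM22. The core with 2 bases between was in 2 of the 7 windows, and with 2 or 3 bases in 4 of them. The windows of SP100 and TRIM25 held neither, which says only that these letters are not in those bases: SP100 was the member with the largest difference. TRIM14, which holds a match, was lower by less than 2-fold. Without a window, whether TRIM22 and PML hold a match is not known. A link between matches and differences was not tested.

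**Figure D2:**
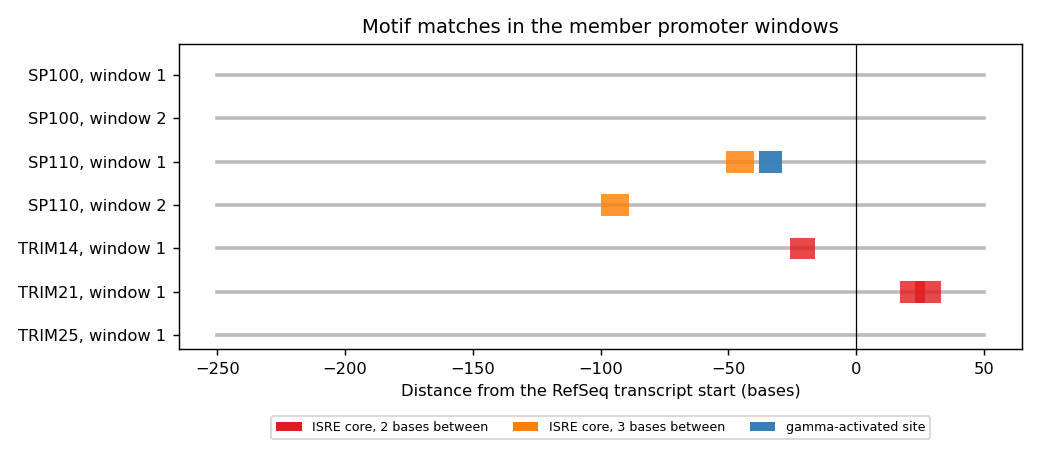
Position (x axis, bases from the RefSeq transcript start) of motif matches in the 7 promoter windows of 5 members (rows); grey lines span the 300 bases searched and coloured blocks are matches on either strand. SP110, TRIM14 and TRIM21 carry GAAA repeats at the spacings searched, at -100 to 33. The windows of SP100 and TRIM25 carry none at those spacings, and other spacings were not searched.

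TRIM25, the ligase that modifies the RNA sensor RIG-I and assists the antiviral protein ZAP, differed from the other members. Its 1 set, 206911_at, read 3.91 with sgIL1RN1~3, 3.91 with sgTetO and 3.78 with sgTetOmut. The first 2 values are the same in the deposited table, and sgTetOmut was the lowest of the 3, by 0.13. The set lay within 0.6 of the highest Bacillus value on each array, so a change of TRIM25 could have been missed at this signal. It was the 1 member set above background on all arrays that was not highest on sgTetOmut, as 13 of those 14 sets were; over all named sets above background on all arrays, 28.4% were lower on both other arrays than on sgTetOmut.

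**Figure D3:**
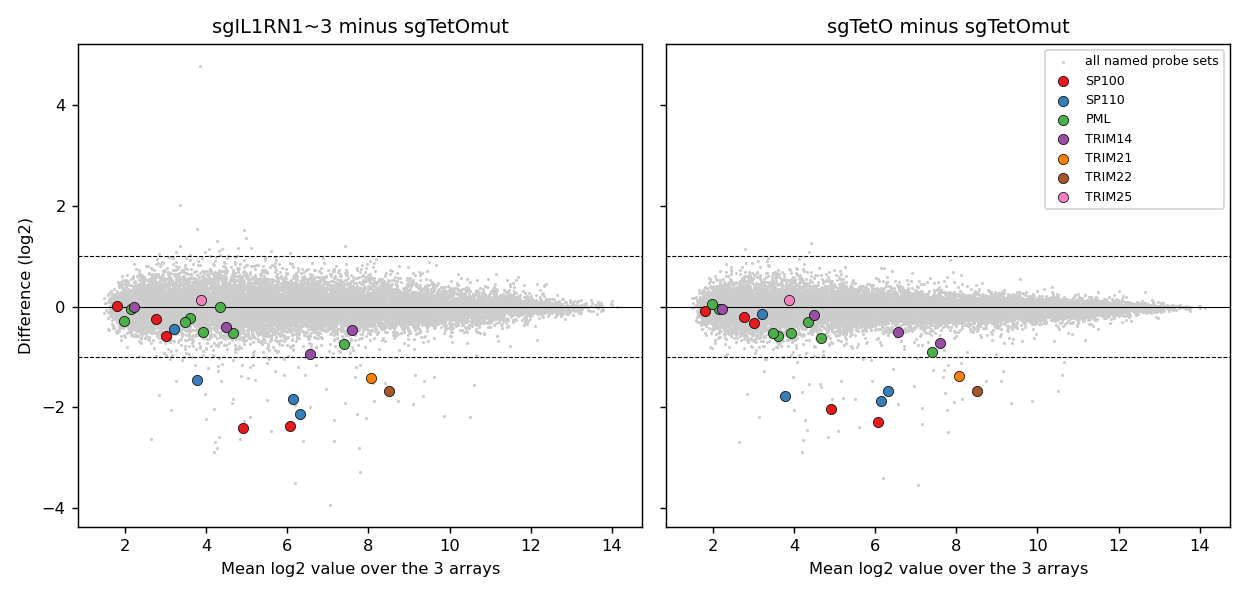
Log2 difference from the sgTetOmut array (y axis) against the mean log2 value over the 3 arrays (x axis) for sgIL1RN1~3 (left) and sgTetO (right); grey points are all 19070 named probe sets, coloured points the 24 member sets, dashed lines mark 2-fold. Member sets with a mean under 3.5 lie within 0.6 of 0, and the sets of SP100, SP110, TRIM21 and TRIM22 that lie below the lower dashed line have means of 3.78 to 8.50.

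The dim sets showed little of these differences. The 5 sets at background on all arrays differed from sgTetOmut by -0.28 to 0.02 with sgIL1RN1~3 and by -0.20 to 0.05 with sgTetO, in the same genes whose bright sets differed by up to -2.41. A dim set holds mostly background signal, and its difference understates any change of its transcript. Within SP100, PML and TRIM14 the numbers above therefore give no measure of how splice forms differ.

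The partners of these proteins were looked at next. Of 24 measured nuclear body partners, 0 were 2-fold lower or higher than sgTetOmut on both arrays. Over all genes 0.385% were 2-fold lower on both, a share at which 0 of 24 says little. The median difference of the 24 partners was -0.02 with sgIL1RN1~3 and -0.03 with sgTetO. Furthest below were ISG20, a ribonuclease found in nuclear bodies, at -0.77 and -0.78, SP140L, and SP140 at background. The second ISG20 set, 204698_at, differed by -0.40 and -1.10. DAXX, the histone H3.3 chaperone that PML recruits, read 8.20 with sgIL1RN1~3, 7.76 with sgTetO and 7.66 with sgTetOmut. The second DAXX set, 216038_x_at, differed by -0.07 and 0.03. NBN differed by 0.04 and -0.04 by its brightest set, but by -0.90 and -0.71 by 202905_x_at. Its sets 202906_s_at and 217299_s_at differed by -0.55 and -0.18, and by -0.32 and -0.18. ATRX, the co-chaperone of DAXX, differed by 0.07 and -0.04. SUMO3, a modifier of PML, differed by -0.03 and -0.02, and HIRA, another histone chaperone seen in the bodies, by 0.14 and -0.03. Furthest above on sgTetO were MRE11, a nuclease of DNA repair, at -0.39 and 0.29, HIPK2, a kinase, at 0.29 and 0.17, and TOP3A, a topoisomerase, at -0.18 and 0.10.

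Of 29 other TRIM genes with a set of their own, 0 were 2-fold lower or higher than sgTetOmut on either array. Over all genes 0.385% were 2-fold lower on both, a share at which 0 of 29 says little. The median difference of the 29 genes was -0.01 with sgIL1RN1~3 and -0.05 with sgTetO. TRIM38, a regulator of innate signalling, was the 1 gene at least 1.5-fold lower in both. Its brightest set read 6.99 with sgIL1RN1~3, 6.86 with sgTetO and 7.63 with sgTetOmut. Next furthest below on sgTetO were TRIM5 and TRIM10, and TRIM10 was at background throughout. Furthest above on sgTetO were TRIM31 at 0.52 and 0.49, TRIM36 at -0.02 and 0.21 and TRIM9 at 0.14 and 0.14. TRIM28, a corepressor of zinc finger proteins, TRIM33 and TRIM24 of the same subfamily differed by 0.48 and 0.09, -0.06 and 0.04, and -0.22 and 0.05. Among 33 genes with a TRIM symbol measured here, TRIM21 and TRIM22 were the 2-fold lower ones.

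Among 11 measured substrates and partners of the TRIM members, RIGI alone was 2-fold lower in both comparisons, where 0.385% of all genes were. RIGI, the cytosolic sensor of viral RNA that TRIM25 modifies, read 8.29 with sgIL1RN1~3, 8.75 with sgTetO and 10.2 with sgTetOmut, a difference of -1.94 and -1.48. ZC3HAV1, which encodes ZAP, differed by -0.86 and -0.56, and its second set, 213051_at, by -0.17 and -0.90. IRF7, a transcription factor that TRIM21 is known to target, was at background on sgIL1RN1~3 and differed by -0.56 on sgTetO. MAVS differed by -0.19 and -0.08, and the TRIM21-associated autoantigens SSB and RO60 by -0.15 and -0.01, and -0.14 and -0.18. Furthest above on sgTetO were VCP at 0.85 and 0.06, IKBKG at 0.09 and 0.00 and SSB. The second VCP set, 208648_at, differed by 0.01 and -0.01.

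Of 4 measured interferon-activated transcription factors, IRF9, which carries the STAT complex to the response element, was 2-fold lower in both comparisons. Over all genes, 0.385% were. IRF9 read 7.41 with sgIL1RN1~3, 7.41 with sgTetO and 8.57 with sgTetOmut, a difference of -1.16 and -1.16. IRF1 differed by -0.35 and -0.57 and IRF3, which is activated without new synthesis, by 0.19 and -0.09.

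Interferon response genes set beside the members had a median difference from sgTetOmut of -2.41 with sgIL1RN1~3 and -2.12 with sgTetO. Of these 8 genes, 7 were 2-fold lower than sgTetOmut on both arrays, where 0.385% of all genes were. RSAD2, ISG15 and IFIT1 differed by -3.94 and -3.55, -1.88 and -1.84, and -2.20 and -1.67 for sgIL1RN1~3 and sgTetO, and MX1, which was not, by -0.46 and -0.50. MX1 read 3.57, 3.53 and 4.03 on sgIL1RN1~3, sgTetO and sgTetOmut, within 0.8 of the highest Bacillus value, so a larger change of it could have been missed. IFIT3, IFI44, OAS1 and IFI6 differed by -3.28 to -1.77 with sgIL1RN1~3 and by -2.58 to -1.90 with sgTetO. SP100 and SP110 lay within the range of these 7 genes on both arrays, and the other 5 members were closer to 0 than any of them. With sgTetO the edge of that range was thin: SP110 was at -1.6715, IFIT1 at -1.6696 and TRIM22 at -1.6649. These 3 values cannot be told apart.

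**Figure D4:**
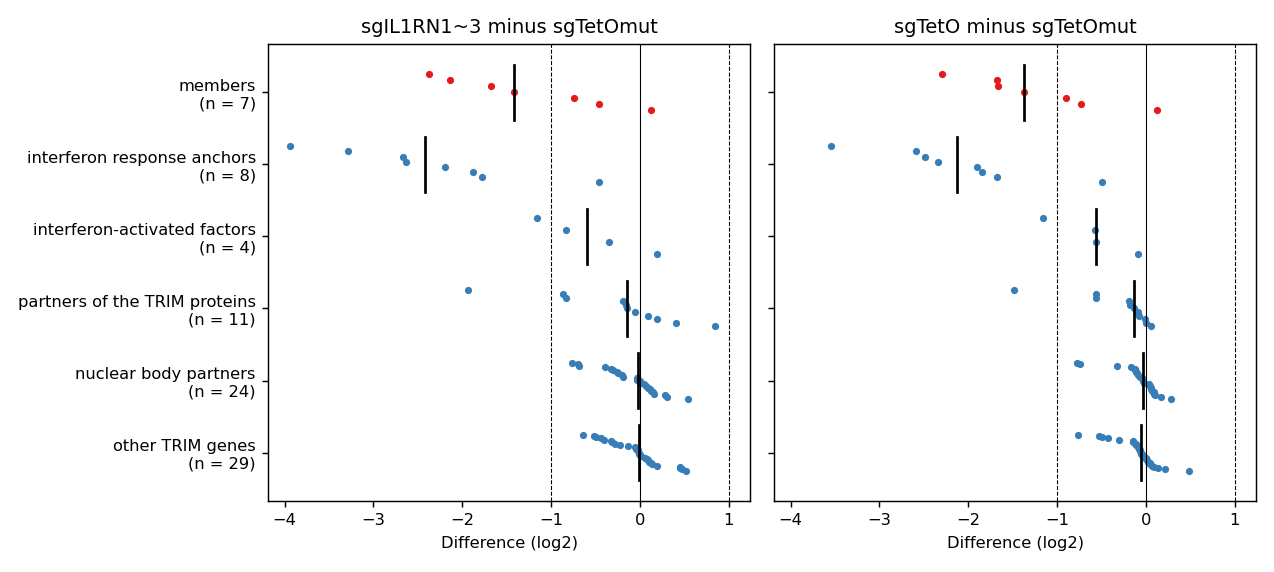
Log2 difference from sgTetOmut (x axis) of single genes, each by its highest-mean probe set, for sgIL1RN1~3 (left) and sgTetO (right); rows are the 7 members and 5 related lists, vertical bars are list medians and dashed lines mark 2-fold. The members spread from -2.38 to 0.13 and from -2.30 to 0.13, whereas the nuclear body partners and the other TRIM genes lie within 0.8 of 0.

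The genes most like each 2-fold lower member were found by the distance between the differences from sgTetOmut, over 6143 other genes that reached the median level on at least 1 array. For SP100 they were OASL, PSMB9 and OAS1, at distances of 0.12, 0.25 and 0.29. For SP110 they were SHFL, IFIT1 and IFITM1, at 0.04, 0.07 and 0.21. USP18, LAMP3 and SAMD9 were nearest to TRIM21, at 0.04, 0.11 and 0.12, and IFITM3, IFI27 and IFI6 to TRIM22, at 0.10, 0.25 and 0.26. USP18, for example, read 7.21 with sgIL1RN1~3, 7.21 with sgTetO and 8.60 with sgTetOmut. OASL, PSMB9, SAMD9 and IFI27 reached the median level on sgTetOmut alone, so the level limit let in genes through the array where the members are high. The measure rests on 3 arrays that share sgTetOmut, and is a description.

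The sgIL1RN1~3 array also differed in its chip controls of RNA integrity. The 5' sets for ACTB and GAPDH were 0.82 and 0.66 above sgTetOmut there, against -0.13 and -0.18 for sgTetO, while the 3' sets were within 0.07 on both. Their part in the differences of the members was not tested. With 1 array per guide, a difference between guides and a difference between cultures cannot be told apart.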

How the data were processed

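Per the labels, total RNA of 3 transfected HEK293T cultures went on 1 single-channel array each. The authors deposited log2 values, made with affy per the submitters' processing notes. Not given in the sources used here were its version, the background correction, the normalization and the summary method. That the scale is log2 was read from the range, 1.36 to 14.5. The sorted columns lay within 0.104 of their mean, so a shift shared by all genes would have been removed. The number of arrays limits the precision.

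Of 22277 probe sets, 19070 had 1 symbol in GEO's platform annotation, 1043 had several and 2164 none, and only the first kind was named. Gene identifiers of 19058 sets were found in the GRCh38.p14 table. Lists used, per gene, the probe set of highest average level. Named outside the members were the 3 list genes furthest below and above sgTetOmut on sgTetO, all list genes 2-fold apart, and the 3 genes nearest to each 2-fold lower member; other genes were named after their values were seen. Members and lists were chosen with earlier results of these data known, and the Bacillus background after the data were seen.

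The alternatives used limma 3.58.1 in R 4.3.3, and other steps Python 3.11.15, numpy 2.4.6, pandas 2.3.3 and matplotlib 3.10.9. Counting was checked on simulated arrays.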

Additional observations from a re-analysis of the deposited data

How the results depend on the processing

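No paired analysis was possible because each group has 1 array. Of 118 alternative values for the member results, 17 moved, a difference by more than 0.28 (the SD of sgIL1RN1~3 minus sgTetO over all named sets) or a count by over 1.5 times, and 0 reversed a 2-fold difference. With the mean of all sets of a gene, which includes dim sets, the median member difference, which is then that of SP100, was -1.12 for sgIL1RN1~3 and -0.99 for sgTetO minus sgTetOmut, so SP100 falls short of 2-fold on sgTetO. PML was then at -0.32 and -0.43, short of 1.5-fold, and TRIM14 was at -0.10 for sgIL1RN1~3 minus sgTetO, in place of 0.26. Counted by 1 set per gene, 4 were 2-fold lower in each of these comparisons in place of 7 sets, since SP100 and SP110 have several. With 2 or 3 bases allowed between the GAAA repeats, an alternative chosen after seeing the data, 4 promoter windows matched in place of 2. Quantile scaling, cyclic loess scaling and 16 added to the linear values gave 7, 7 and 6 sets 2-fold lower in each comparison with sgTetOmut, and neither scaling moved the median of all sets by more than 0.03. With 16 added, SP100 moved to -1.98 with sgIL1RN1~3 and -1.93 with sgTetO, and SP110 to -1.80 with sgIL1RN1~3. Limits of 1.5-fold and 3-fold gave 10 and 5 for sgIL1RN1~3 and 10 and 6 for sgTetO. Between sgIL1RN1~3 and sgTetO the count was 0 in all 7 alternatives run. Some of these could give nothing but 0 once the main count was 0. They were the 3-fold limit, 16 added, 1 set per gene, and only sets whose higher value reached the median level. Only the 2 scalings and the 1.5-fold limit could have raised it. Signal over background limits the dim sets of SP100, PML, TRIM14 and TRIM25.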
